A study of Mus musculus with 4 samples.

Results

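In hearts of mice at postnatal day 14, 901 regions of accessible chromatin were lower in both Carm1 mutant libraries than in both wild-type libraries. They were narrow and mostly weak, lay far from the starts of genes, and lay near one another more often than other peaks lay near them. They were taken from a table of 87948 ATAC-seq peaks, of which 86612 lie on autosomes and 68335 of those reached a mean of 3 CPM (a peak's count divided by the library's total count in peaks, times 1000000) in the wild type. The members were chosen by their CPM in all 4 libraries: after 0.5 CPM was added to each, the smaller wild-type value had to be at least 75% above the larger mutant value. A member also had to be autosomal, with a wild-type mean of 3 CPM or more. The rule took 1.32% of the 68335 peaks. The same rule turned around, for peaks higher in both mutant libraries, took 881. Those were about as narrow, with a median width of 426 bp against 435 bp. Another of their kind lay within 50 kb of 18.7% of them, against 13.0% for the lower peaks, so narrowness and clustering were not particular to the lower peaks.

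The libraries come from whole heart: 2 of wild-type genotype and 2 labelled Carm1 mutant, all at postnatal day 14. The labels do not state the allele, strain or sex, whether the mutation reaches every cell of the heart, or whether the replicates come from separate animals, so the spread between replicates may be technical. The libraries held 15945420 to 19091969 counts in peaks. As a check of the tissue, 19 of 22 genes of the mature contractile apparatus had a peak within 1 kb of a start or end, and the peak at Tnni3, cardiac troponin I, was at 96.3 and 94.9 CPM in the wild type and at 122 and 96.9 CPM in the mutant. Of 14 leukocyte marker genes, 11, Ptprc among them, had no peak within 1 kb of a start or end, while Spi1 had peaks of 34.7 and 40.2 CPM in sum in the wild type and Runx1 of 33.9 and 33.1 CPM. Myh6, the main myosin of heart muscle, had no such peak either, so a missing peak does not show that a gene is silent. Here and for the cell type markers below, a peak was counted only for the gene nearest to it. A peak within 1 kb of a marker gene but nearer to another gene was therefore not counted.

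ATAC-seq uses a transposase that inserts sequencing adapters where DNA is not wrapped tightly around nucleosomes, so the counts of a peak follow how open the region is over all the cells of the sample. Open regions fall broadly into promoters, which are open in many cell types, and distal regions, many of them enhancers, whose opening differs much more between cell types and stages. Carm1 is an arginine methyltransferase and transcriptional coactivator that methylates histone H3 and other chromatin proteins, and the heart in the weeks after birth changes its contractile proteins, metabolism and growth. In whole tissue, fewer cells of a type and less accessibility per cell cannot be told apart, and this touches every value below.

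Few of the 901 peaks lay at promoters, and the promoters they covered were poor in CG dinucleotides, the sites of DNA methylation that are dense in the promoters of widely used genes. The 250 bases before a protein-coding start in RefSeq (build GRCm38.p6) overlapped a lower peak at 14 starts of 12 genes. The median number of CG dinucleotides in these stretches was 2.5, with a range of 0 to 11. Over the 3779 promoters under a peak of 3 to 20 CPM the median was 13, and over all 20085 promoters it was 10. Some overlaps were as short as 1 base. In the 7 stretches with 200 bases or more under a member the median was 5, against 14 in the 2972 with as much under a peak of 3 to 20 CPM. Over all 14 stretches the median GC content was 46.4%, against 58.4% over the 3779 promoters under peaks of 3 to 20 CPM. The stretches of 5 of these genes, each with 200 bases or more under a lower peak, are shown 5′ to 3′ because they span that range, with every CG dinucleotide in capitals.
Shld1 (chr2:132689907-132690156, + strand): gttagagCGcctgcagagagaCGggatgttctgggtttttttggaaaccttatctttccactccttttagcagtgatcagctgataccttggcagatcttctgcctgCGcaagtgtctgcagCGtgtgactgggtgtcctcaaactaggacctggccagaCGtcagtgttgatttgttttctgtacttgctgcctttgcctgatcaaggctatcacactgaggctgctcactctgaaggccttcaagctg
Ctsk (chr3:95498960-95499209, + strand): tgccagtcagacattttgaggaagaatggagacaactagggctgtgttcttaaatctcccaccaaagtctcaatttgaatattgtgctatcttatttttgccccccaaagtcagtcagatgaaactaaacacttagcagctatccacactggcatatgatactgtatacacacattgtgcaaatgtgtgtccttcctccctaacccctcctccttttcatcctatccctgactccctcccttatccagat
Strit1 (chr3:63483907-63484156, - strand): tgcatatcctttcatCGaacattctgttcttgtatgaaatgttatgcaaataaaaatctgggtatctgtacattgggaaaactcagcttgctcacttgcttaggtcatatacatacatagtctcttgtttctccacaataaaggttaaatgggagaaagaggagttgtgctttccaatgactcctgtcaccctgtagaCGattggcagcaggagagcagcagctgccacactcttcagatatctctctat
Dct (chr14:118052247-118052496, - strand): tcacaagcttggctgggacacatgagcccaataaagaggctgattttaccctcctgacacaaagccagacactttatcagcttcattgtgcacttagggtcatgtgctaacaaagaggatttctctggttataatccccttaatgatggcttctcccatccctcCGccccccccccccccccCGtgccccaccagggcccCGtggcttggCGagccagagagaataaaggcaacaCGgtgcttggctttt
Ankrd35 (chr3:96669881-96670130, + strand): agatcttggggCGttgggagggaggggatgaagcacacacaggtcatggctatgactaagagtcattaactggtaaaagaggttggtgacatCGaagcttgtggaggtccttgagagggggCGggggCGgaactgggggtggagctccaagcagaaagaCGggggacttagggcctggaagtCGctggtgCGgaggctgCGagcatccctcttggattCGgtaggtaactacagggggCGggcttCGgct
The stretch of Ctsk holds 0 CG dinucleotides, that of Strit1 holds 2, those of Shld1 and Dct hold 5 each, and that of Ankrd35 holds 11. Ctsk encodes the protease cathepsin K, Dct an enzyme of melanin synthesis, Strit1 the micropeptide DWORF that raises the activity of the cardiac calcium pump SERCA, and Shld1 a subunit of the shieldin complex that protects broken DNA ends. Each of 3 short motifs was searched on both strands of the 250 bases, and matches were counted whether or not they overlapped another motif. The E-box CANNTG was found in 11 of the 14 stretches and in 62.2% of promoters under peaks of 3 to 20 CPM. The GATA motif AGATAA was found in 3 of 14, against 6.46%, and the ETS motif CCGGAA in 0 of 14, against 18.02%. CCGGAA holds a CG dinucleotide and AGATAA is mostly A and T, so neither count is separate from the CG and GC values above. With 14 stretches these counts are a description, and an absent match says only that those letters are not in this window.

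The level of the 901 peaks in each library follows from how they were chosen and is given without a test. The median peak was at 5.997 CPM in wild type 1 and 6.39 CPM in wild type 2, and at 2.27 and 2.32 CPM in the mutant libraries. The median counts behind these values were 105, 122, 38 and 37 counts, and the smallest wild-type count of any member was 32. The mutant libraries therefore still held reads in every member, and no member was at 0. Between the genotypes, the median log2 ratio of means (CPM + 0.5, mutant over wild type) was -1.23, against -0.05 over all 68335 peaks. The ratio of the smaller wild-type to the larger mutant value had a median of 1.95. It reached 2 in 385 peaks and 3 in 18. Most of these peaks were weak in the wild type, where 679 had a mean under 10 CPM and 48 a mean of 20 CPM or more. The share of peaks that were members varied little among weak peaks, between 1.44% and 1.63% in each class from 3 to under 14 CPM. It was 1.30% at 14 to under 20 CPM, 0.694% at 20 to under 30 CPM, 0.200% at 30 to under 50 CPM and 0.107% from 50 CPM.

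**Figure D1:**
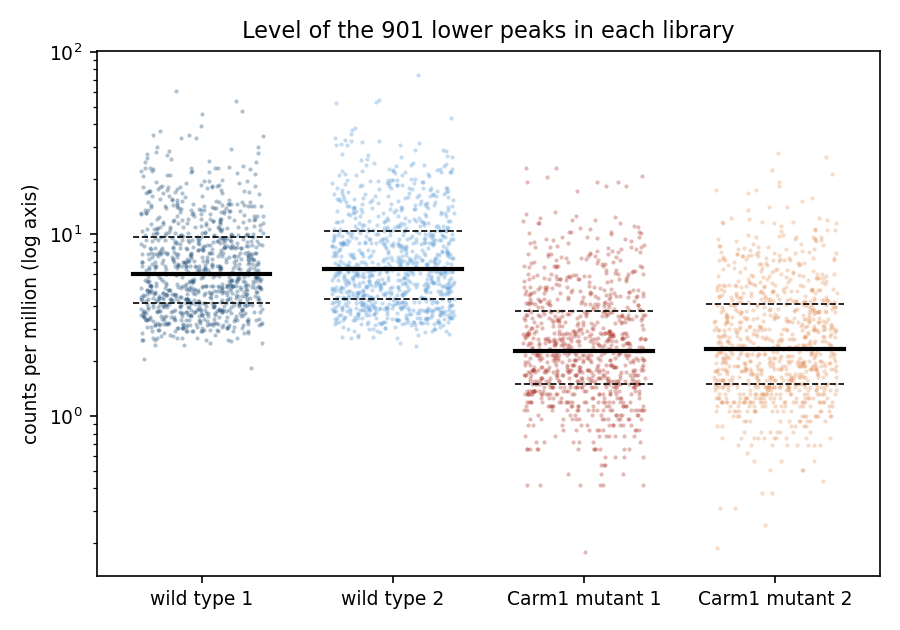
Level of each of the 901 lower peaks (points) in the 4 libraries, in CPM on a log axis; the solid line is the median and the dashed lines are the quartiles. The medians are 5.997 and 6.39 CPM in the wild type and 2.27 and 2.32 CPM in the mutant, a gap that the rule for choosing the peaks sets.

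edgeR's quasi-likelihood test across all peaks called 2156 lower in the mutant at a Benjamini-Hochberg adjusted p under 0.05, which is 2.45% of 87948 peaks. Of the 68335 autosomal peaks of 3 CPM or more it called 1908, or 2.79%. It called 834 of the 901 members (92.6%) and left 67 uncalled, while 1290 other autosomal peaks were called lower. The test and the rule use the same contrast, so nothing is read from this overlap. The calls depended on which library was left out. Without wild type 1 there were 882 lower calls (429 of them members), and without wild type 2 there were 364 (257 members). Without mutant 1 there were 2737 (738 members), and without mutant 2 there were 4132 (769 members). Just inside the fold limit, a peak 87098 bp from Zcchc2 was at 5.65 and 4.77 CPM in the wild type and at 2.21 and 2.51 CPM in the mutant. Just outside it, a peak 1680 bp from Bche was at 4.68 and 4.03 CPM in the wild type and at 2.09 and 1.63 CPM in the mutant, so peaks on both sides of the limit looked alike. At the abundance limit, a peak within Slc24a3 with a wild-type mean of 3.004 CPM was taken and one within Trim2 with a mean of 2.992 CPM was not.

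The lower peaks lay farther from genes than other peaks of the same strength. The median lower peak lay 47780 bp from the nearest protein-coding gene start (either end where no start was listed), with quartiles of 17195 and 120915 bp. Autosomal peaks weighted to the same spread of wild-type CPM lay at a median of 20665 bp. Weighting them on the mean of all 4 libraries gave 25147 bp, and on wild-type CPM and width together 24950 bp. The mirrored rule, which picks peaks higher in both mutant libraries, took 881 peaks with a median distance of 28929 bp, between those values and that of the lower peaks. Peaks are not replicates of a genotype, and these comparisons carry no test.

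Few members lay close to a gene start. Within 1 kb of a gene start or end lay 16 of the 901 peaks, or 1.78%, against 11.9% of peaks of like abundance and 3.75% of the mirrored set. Weighting on the mean of all 4 libraries gave 7.97%, and on wild-type CPM and width together 8.78%. At the far end, 434 (48.2%) lay over 50 kb away, against 28.6% of like-abundance peaks and 34.96% of the mirrored set. The other weightings gave 32.6% and 32.2% in the same order. Over 500 kb from the nearest gene start (either end where no start was listed) lay 32 peaks. This was 3.55%, against 0.950% of like-abundance peaks (1.58% and 1.42% with the other weightings) and 0.681% of the mirrored set. The share of peaks that were members rose in every step of distance, from 0.127% within 1 kb through 0.650%, 1.15%, 1.55%, 1.87% and 2.49% to 3.78% beyond 200 kb. Among peaks from 300 bp to under 500 bp wide alone the share was 0.465% within 1 kb and 5.24% beyond 200 kb, with nearly equal shares of 2.50% at 20 to 50 kb and 2.48% at 50 to 100 kb.

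**Figure D2:**
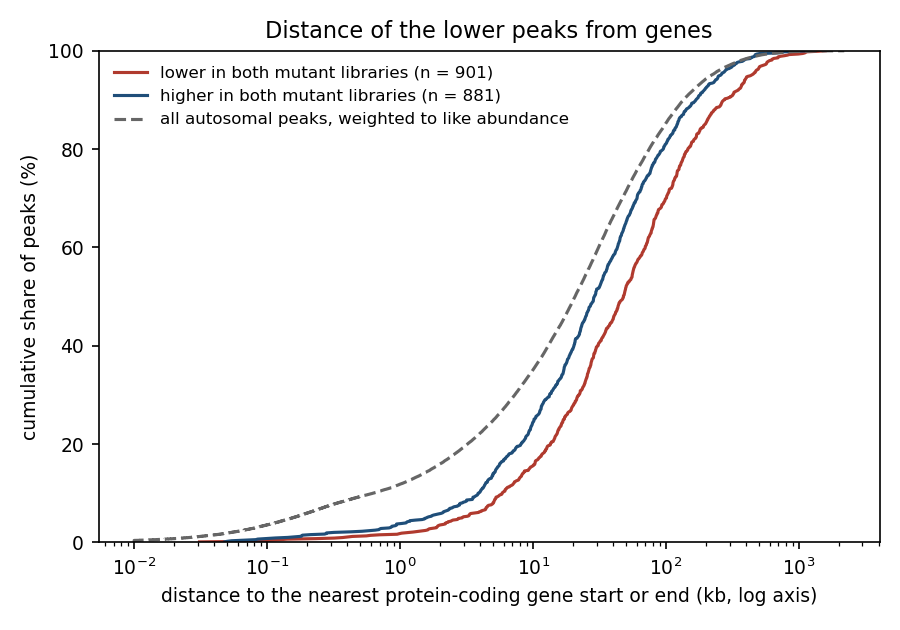
Cumulative share of peaks (vertical axis, %) within a given distance of the nearest protein-coding gene start or end (horizontal axis, kb, log scale), for the 901 lower peaks, the 881 peaks higher in both mutant libraries and all autosomal peaks weighted to like abundance. The curve of the lower peaks lies to the right of both others, with medians of 47780, 28929 and 20665 bp.

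Lower peaks were also narrow. Their median width was 435 bp, with quartiles of 347 and 572 bp, against 577 bp for peaks of like wild-type abundance and 426 bp for the mirrored set. Weighted on the mean of all 4 libraries, which the mutant values pull down for members, the other peaks had a median width of 465 bp, so the difference in width depended on the weighting. Of the members, 11.8% were under 300 bp, against 4.84% of like-abundance peaks and 15.7% of the mirrored set. Weighted on the mean of all 4 libraries the share was 11.3%, close to that of the members. The share of peaks that were members fell from 3.63% under 300 bp to 0.0815% at 1500 bp or more.

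Lower peaks lay inside genes no more often than other peaks, but the genes around them were longer. A protein-coding gene spanned 512 of them (56.8%), against 63.7% of like-abundance peaks and 58.4% of peaks weighted on wild-type CPM and width together. The genes around them had a median length of 154463 bp, against 92879 bp and 104701 bp. For the mirrored set the median length was 110491 bp. A peak far from every start can lie only in a long gene, so this length is not separate from the distances above. The surroundings of the lower peaks held few other peaks: a median of 5 within 50 kb, against 9 for like-abundance peaks and 7 for the mirrored set. No other peak lay within 50 kb of 62 members (6.88%), against 2.89% of like-abundance peaks and 3.86% of the mirrored set. Weighted on the mean of all 4 libraries, or on wild-type CPM and width together, the median was 8 and the share 3.59% and 3.91%. Only 2 members lay within 10 kb of a microRNA hairpin, 0.222% against 1.91% of all peaks of 3 CPM or more. One was near Mir32 and the other near Mir7039. The ends of long noncoding RNA genes lay within 1 kb of 3.88% of members and 5.15% of like-abundance peaks.

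The largest ratio belonged to a peak within Bcl9, which encodes a coactivator that binds beta-catenin in Wnt signalling. The peak (chr3:97267479-97267797, 40274 bp from the nearest start of the gene) was at 7.82 and 6.34 CPM in the wild type and at 0.896 and 0.564 CPM in the mutant. Both mutant libraries were far below both wild-type libraries, with a ratio of 4.90. Bcl9l, its paralog, had a lower peak 8196 bp from an end of the gene, at 13.5 and 14.6 CPM in the wild type and at 2.39 and 3.89 CPM in the mutant. Its mutant values differed from each other more than its wild-type values did, and the ratio was 3.19.

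The second largest ratio, 4.48, was that of a stronger and wider peak near Cyb5a, the gene of cytochrome b5. It (chr18:84884322-84885641) was at 28.7 and 27.3 CPM in the wild type and at 3.82 and 5.71 CPM in the mutant, 5110 bp from an end of the gene. A peak within Fnip2, which encodes a partner of folliculin in the control of AMPK and mTOR, was at 16.2 and 19.3 CPM in the wild type and at 3.70 and 4.26 CPM in the mutant. It lay 92519 bp from the gene's start, where a strong peak stood at 43.1, 44.7, 40.5 and 38.2 CPM in wild type 1 and 2 and mutant 1 and 2. At the start both mutant libraries were slightly below both wild-type libraries, by -0.16 on the log2 scale, against -2.02 at the distal peak. A peak within Smg1, a kinase of nonsense-mediated mRNA decay, was at 13.4 and 14.1 CPM in the wild type and at 2.69 and 3.70 CPM in the mutant.

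Of the 10 peaks with the largest ratios (at most 1 for each nearest gene), 5 were more than 200 kb from the nearest protein-coding start (either end where no start was listed). The nearest genes were Flrt2, an adhesion protein gene 1129838 bp away, Tlr4, the lipopolysaccharide receptor gene 986986 bp away, Cobl, an actin nucleator gene 567689 bp away, Prr30 at 228894 bp and Saraf at 222298 bp. At such distances the name only locates the peak. Of all 901 members, 132 lay beyond 200 kb, as did 3496 of the 68335 autosomal peaks of 3 CPM or more. The peak nearest Saraf was at 6.45 and 6.55 CPM in the wild type and at 1.43 and 0.753 CPM in the mutant, and that nearest Cobl at 7.82 and 7.59 CPM and at 1.79 and 1.25 CPM. One closer to a start, within Ano3, a gene of the anoctamin family, lay 23507 bp from a start and had a ratio of 3.33.

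Strong peaks were rare among the members: of the peaks at 50 CPM or more, 3 of 2798 (0.107%) were members, against 1.32% of all 68335. The strongest was the Shld1 peak whose promoter stretch is printed above (chr2:132689162-132690352), at 61.1 and 74.95 CPM in the wild type and at 20.6 and 22.5 CPM in the mutant. Both mutant libraries were far below both wild-type libraries, with a ratio of 2.68. Next came a peak within Foxn3, a forkhead repressor gene, at 53.5 and 54.3 CPM in the wild type and at 22.9 and 27.8 CPM in the mutant. Peaks within Bcas3 and Hdac4 followed, with wild-type means of 50.1 and 48.9 CPM and ratios of 1.78 and 2.11. Hdac4 encodes a histone deacetylase that represses MEF2 factors.

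Shld1 held one of the groups of 3 members. RefSeq lists 3 starts for the gene, and the strongest member lies over an internal one, 400 bp from it and 2826 bp past the first. Further along were members at 9846 bp (19.3 and 19.5 CPM in the wild type, 7.35 and 5.71 CPM in the mutant) and at 11631 bp (12.6 and 15.7 CPM, 5.62 and 4.58 CPM). From the first to the last of these, over 9631 bp, all 8 peaks in the table were lower in mean in the mutant, the 5 that are not members by at least 0.42 on the log2 scale. The peak at the first start, however, was at 37.5 and 38.4 CPM in the wild type and at 37.1 and 31.98 CPM in the mutant, a difference of -0.13 on the log2 scale. The genotypes were thus close at the first start and apart at the internal start and at the peaks behind it. Another member, at -129760 bp from the first start of Shld1, lay within a different gene, Gpcpd1, 21077 bp from an end of that gene. It was at 4.17 and 4.66 CPM in the wild type and at 0.836 and 1.13 CPM in the mutant.

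**Figure D3:**
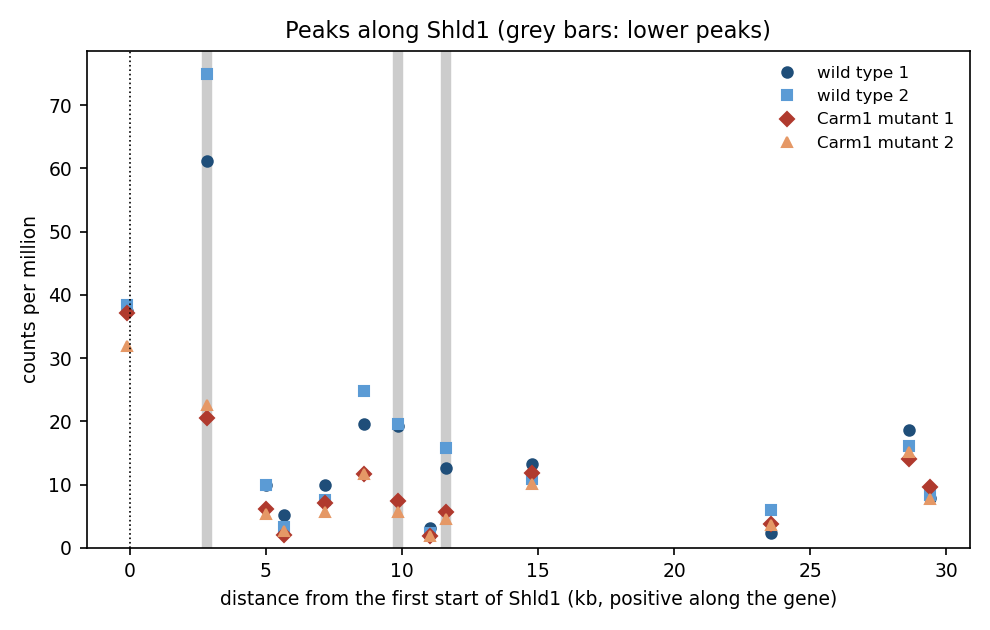
CPM in each of the 4 libraries (symbols) at the peaks along Shld1, by distance from the first start of the gene in kb; grey bars mark the members. At the first start the libraries lie between 31.98 and 38.4 CPM, while at the member 2826 bp further on the wild type is at 61.1 and 74.95 CPM and the mutant at 20.6 and 22.5 CPM.

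Start peaks of genes with members, the members themselves left out, had a median near equality. For the 637 genes that were nearest to a member within 50 kb or had one between their ends, 597 peaks that are not members lay within 1 kb of a start or end. Their median log2 difference was -0.04, with quartiles of -0.20 and 0.08, and their median level was 19.3 CPM in the wild type and 19.2 CPM in the mutant. At the other genes the median was -0.01. edgeR called 6 of the 597 lower (1.01%) and 12 of the 11976 at other genes (0.100%), beside 0.143% of all 12573 such peaks. The members that picked these genes and the calls use the same contrast in the same libraries, so nothing is read from this difference. Acvr1, a receptor of bone morphogenetic proteins, held 3 members 45010 to 78210 bp from its start, the strongest at 30.04 and 30.59 CPM in the wild type and at 13.14 and 14.05 CPM in the mutant. The peak over its start was at 11.5 and 10.9 CPM and at 10.3 and 9.09 CPM. At the Acvr1 start the mutant libraries were slightly below the wild type, and at its members clearly so.

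Members tended to lie near other members. With 50 kb as the window, another member lay near 117 of the 901 (13.0%), while a member lay within 50 kb of 6.62% of like-abundance peaks. Within 5 kb the shares were 4.11% and 0.840%. Seen from the neighbours, 7.04% of the peaks of 3 CPM or more within 5 kb of a member were members themselves, against 1.32% of all. Peaks of the mirrored set lay near their own kind as often or more so, with 18.7% having another within 50 kb. With 1 library left out the rule takes 1910 to 2978 peaks, and the share of members with another within 50 kb is then 22.2% to 32.4%. A mirrored peak lay within 5 kb of 2 members (0.222%) and within 50 kb of 36 (3.996%). The share of all peaks with a mirrored peak that near was not computed. In the other direction, 0.227% of mirrored peaks had a member within 5 kb and 3.97% within 50 kb. For all peaks of 3 CPM or more, not weighted for abundance, these shares were 0.808% and 6.45%.

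The peaks around members that met neither rule were also lower on average, by an amount that shrank with distance. Within 2 kb of a member, 243 such peaks had a median log2 difference of -0.36, and 82.7% of them were below 0. The median was -0.26 at 2 to 5 kb, -0.20 at 5 to 10 kb, -0.14 at 10 to 25 kb and -0.11 at 25 to 50 kb. Beyond 500 kb it was -0.02, near the -0.03 of all other autosomal peaks. Around peaks of the mirrored set the sign was the other way, with a median of 0.34 within 2 kb and 0.15 at 2 to 5 kb. The same libraries chose the members and measured their neighbours, and whether 1 fragment was counted in adjoining peaks is not known, so these medians are a description.

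**Figure D4:**
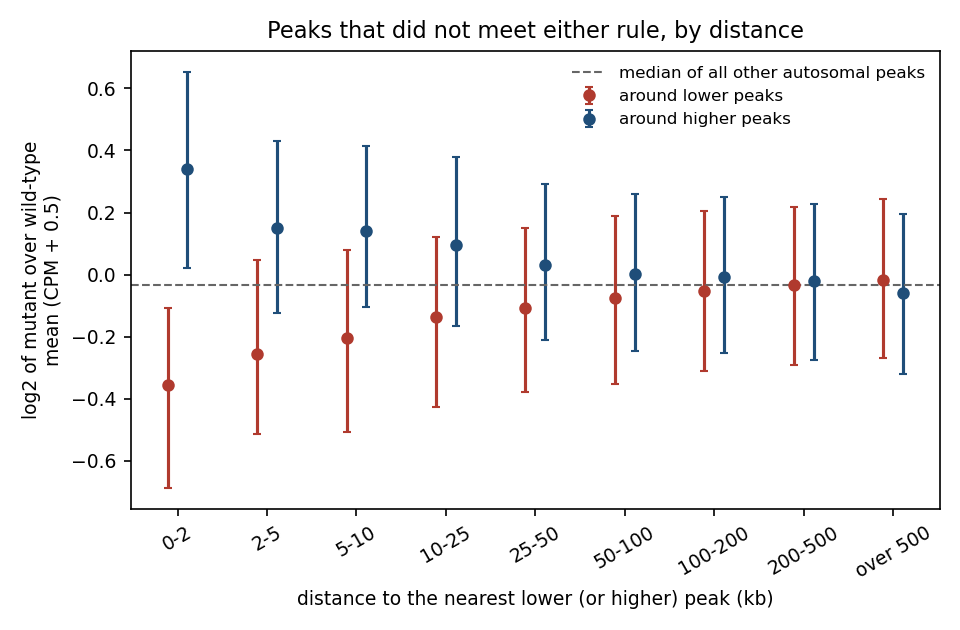
Median log2 ratio of mutant to wild-type mean (CPM + 0.5) of peaks that met neither rule, by distance in kb from the nearest lower peak (red) or the nearest peak higher in both mutant libraries (blue); bars span the quartiles and the dashed line is the median of all other autosomal peaks, -0.03. Within 2 kb the medians are -0.36 and 0.34, and both approach the dashed line with distance.

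When members within 50 kb of the next were joined, 784 stood alone, 45 groups held 2 and 9 groups held 3. The tightest group of 3, over 1645 bp on chromosome 4, lay 25932 to 27252 bp from the start of Ifnb1, the gene of interferon beta. Its strongest peak was at 7.08 and 6.44 CPM in the wild type and at 2.39 and 3.01 CPM in the mutant. A group over 16522 bp lay 137543 to 153470 bp ahead of Krr1, a ribosome assembly gene, its strongest peak at 8.74 and 10.6 CPM in the wild type and at 2.87 and 3.20 CPM in the mutant. The peak at the Krr1 start was at 19.6 and 26.6 CPM and at 22.1 and 27.4 CPM, and its genotypes overlapped.

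A group over 20601 bp lay 77633 to 97800 bp past the start of Trib2, a pseudokinase gene. All 5 peaks in its span were lower in the mutant in mean, of which 3 are members and so lower by the rule. One of these that is not a member was at 6.91 and 6.18 CPM in the wild type and at 4.30 and 7.53 CPM in the mutant, so mutant 2 was above both wild-type libraries there. Its strongest member was at 9.31 and 10.2 CPM in the wild type and at 4.78 and 4.77 CPM in the mutant. Another group lay between Tbc1d21 and Insyn1, and of the 4 peaks of its 31869 bp 3 are members. The other peak there was at 21.1 and 31.0 CPM in the wild type and at 23.6 and 24.8 CPM in the mutant, so its genotypes overlapped. At Strit1 3 members lay at its start and 44027 and 77259 bp past it, and the remaining peak of that span was lower too, by -1.15 on the log2 scale. The Strit1 start peak was at 5.77 and 9.01 CPM in the wild type and at 2.15 and 1.94 CPM in the mutant, and the farthest of the group was at 11.8 and 15.6 CPM and at 4.12 and 4.45 CPM. The Strit1 members varied more between the wild-type libraries than between the mutant ones.

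By gene, 467 members had a protein-coding gene within 50 kb, spread over 441 genes. Of these genes 417 had 1 member, 22 had 2, and Ifnb1 and Shld1 had 3. Counting genes that span a member instead, 456 did so, 43 with 2 members and 7 with 3. Sema5a, the gene of a semaphorin of axon guidance, held 4 among its 18 peaks of 3 CPM or more. The strongest of the Sema5a peaks was at 9.82 and 16.1 CPM in the wild type and at 3.58 and 4.52 CPM in the mutant. Dlc1 held 3 of 36, the strongest at 14.7 and 19.7 CPM and at 5.08 and 4.14 CPM. Adamtsl1, Babam2, Stxbp6 and Wwox held 3 members each.

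At gene starts and ends, 16 members were found, and all but the one at Shld1 had a wild-type mean under 20 CPM. A peak 93 bp from the start of Ankrd35 was at 18.5 and 16.2 CPM in the wild type and at 5.62 and 7.27 CPM in the mutant. A peak 141 bp from the start of Dct was at 12.9 and 22.3 CPM in the wild type and at 4.30 and 7.02 CPM in the mutant, and its wild-type libraries differed widely. At Fmo2, a flavin monooxygenase gene, the peak was at 9.82 and 10.4 CPM in the wild type and at 2.33 and 5.08 CPM in the mutant. The peak at the Ctsk start was at 5.25 and 3.72 CPM in the wild type and at 0.418 and 1.19 CPM in the mutant, and a second Ctsk member lay 700 bp into the gene. Others lay at Gm11213, Rtp3, Pdgfd (a platelet-derived growth factor), Ces1d (a carboxylesterase), Lao1 (an amino acid oxidase) and Olfr520 (an olfactory receptor), with ratios between 1.76 and 2.40.

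Peaks near the listed genes, which cover cardiac programs, signalling pathways and cell type markers together, were members in about the proportion of all peaks near genes. Over 19 lists of 326 genes, 24 of the 2147 peaks nearest to a listed gene within 50 kb were members (1.12%), beside 0.924% of all 50520 peaks of 3 CPM or more with a gene in that range. Members were nearest to genes of 12 lists. In the fetal contractile and stress, calcium handling, glycolysis, fibroblast, mural, leukocyte and AP-1 lists no peak with a listed gene nearest was a member. The lists were drawn up with results of these data known, and several have too few members for a share to mean much.

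Of Wnt pathway peaks, 4 of 158 (2.53%) were members: those of Bcl9 and Bcl9l above, 1 at Wnt5a, a Wnt ligand, and 1 at Lrp5, a Wnt co-receptor. The Wnt5a peak was at 9.14 and 8.80 CPM in the wild type and at 2.81 and 2.82 CPM in the mutant. Within Tnik, a kinase that acts with TCF4, a peak 109960 bp from an end of the gene was at 23.0 and 28.6 CPM in the wild type and at 5.91 and 7.96 CPM in the mutant. The Wnt list as a whole had a median log2 difference of -0.11 over its 158 peaks, against -0.05 for all peaks of 3 CPM or more. Other lists lay farther from 0, among them the endothelial list at -0.22 over 210 peaks and the mature contractile list at 0.19 over 216.

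Of peaks near autophagy, lysosome and mTOR genes, 4 of 90 (4.44%) were members, 2 of them at Mitf and 1 each at Atg7 and Lamp1. Mitf encodes a factor related to TFEB that controls lysosomal and melanocyte genes, Atg7 the enzyme that starts the conjugation of autophagy proteins, and Lamp1 a lysosomal membrane protein. The Lamp1 peak was at 6.11 and 8.38 CPM in the wild type and at 2.33 and 2.45 CPM in the mutant. The 2 Mitf peaks were weak, and the one with the larger ratio was at 3.08 and 3.04 CPM in the wild type and at 0.896 and 0.502 CPM in the mutant. Of peaks near genes of the TGF-beta and BMP pathways, 3 of 147 (2.04%) were members, at the receptor gene Bmpr2, the mediator gene Smad4 and the ligand gene Bmp2, and more lay within Tgfbr2 and Ltbp1. None of these 3 had a wild-type mean above 5 CPM.

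Among ion channel genes, 3 of 144 peaks (2.08%) were members. The member near Kcnj2, which encodes the main inward rectifier of ventricular muscle, was at 13.9 and 14.2 CPM in the wild type and at 6.03 and 6.15 CPM in the mutant, 4562 bp from the start. Members also lay near Hcn4, a pacemaker channel gene, and Kcne1, a potassium channel subunit gene, and another lay within Kcnd3, a channel gene of the transient outward current, at 13.7 and 13.1 CPM in the wild type and at 2.81 and 4.58 CPM in the mutant. Within the calcium handling genes, where no member was nearest to a listed gene within 50 kb, 4 members lay far from the starts of Cacnb2 and Asph. Cacnb2 encodes a subunit of the L-type calcium channel and Asph gives rise to junctin of the calcium release complex. The Cacnb2 member with the larger ratio was at 29.4 and 35.1 CPM in the wild type and at 5.67 and 9.28 CPM in the mutant. The peak at the first start of Cacnb2 was at 25.1 and 25.3 CPM in the wild type and at 36.6 and 25.9 CPM in the mutant. At that start only mutant 1 stood apart, while at the distal peak both mutant libraries were low, with log2 differences of 0.30 and -2.04.

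Of cardiac transcription factor peaks, 3 of 241 (1.24%) were members. They lay near Mef2c, Tbx20 and Gata6, which encode core regulators of heart muscle genes. The Tbx20 peak was at 8.51 and 15.2 CPM in the wild type and at 4.12 and 3.39 CPM in the mutant, and the wild-type libraries differed widely. The Gata6 peak was at 10.3 and 9.27 CPM in the wild type and at 4.66 and 3.76 CPM in the mutant. Of mature contractile genes, only Actc1, cardiac alpha-actin, had a member (1 of 216 peaks). Of fatty acid oxidation genes, only Lpl, lipoprotein lipase, had one within 50 kb (1 of 165), at 24.8 and 23.5 CPM in the wild type and at 11.8 and 11.4 CPM in the mutant. A member also lay within Ppargc1a, the gene of the coactivator PGC-1alpha of mitochondrial biogenesis, at 23.5 and 25.4 CPM and at 11.5 and 11.6 CPM. In the Hippo pathway list members lay at Lats1 and within Yap1, and in the cell cycle list near Cdk1.

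Endothelial and other cell type markers gave few members. Of 210 endothelial peaks, the member nearest to a listed gene lay 46753 bp from Sox17, at 33.5 and 20.01 CPM in the wild type and at 7.71 and 10.5 CPM in the mutant. Members also lay within Erg and Flt1. Wild type 1 was the higher of the wild-type libraries at Sox17, and it also stood apart at the endothelial markers: the summed level of 31 peaks at the starts or ends of all 22 endothelial genes was 575 CPM in wild type 1 and 437 CPM in wild type 2, and 444 and 436 CPM in the mutant. For the 19 of 22 mature contractile genes with such a peak the sums were 1045 and 999 CPM in the wild type and 1278 and 1141 CPM in the mutant, higher in both mutant libraries. For fibroblast genes (13 of 14 with a peak) the sums were 182, 187, 177 and 202 CPM, and for mural genes (9 of 10) 158, 155, 187 and 170 CPM. No member was among these peaks. What part cell type shares have in the lower level of the 901 peaks was not tested. Over the 901 peaks, wild type 1 was the smaller wild-type value in 570.

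At Carm1 itself 1 of 9 peaks in or within 5 kb of the gene was a member. It lay within the gene (chr9:21574070-21574390) and was weak, at 3.20 and 3.40 CPM in the wild type and at 1.25 and 1.19 CPM in the mutant. The strong peak at one end of Carm1 was at 90.9 and 90.9 CPM in the wild type and at 89.8 and 94.9 CPM in the mutant. A weak peak beside it, 1950 bp from the same end, was at 1.31 and 1.94 CPM in the wild type and at 5.02 and 3.26 CPM in the mutant, higher in both mutant libraries. The labels do not say which part of the gene is altered, and a peak outside an altered part checks nothing about the label. In the 5 Mb to each side of Carm1, 7 of 265 peaks of 3 CPM or more were members (2.64%), beside 1.44% on chromosome 9 as a whole and 1.32% of all.

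Members were found on all 19 autosomes in unequal shares. Chromosome 12 had the highest, 58 of 2828 peaks or 2.05%, followed by chromosome 4 with 83 of 4351 or 1.91%. Chromosome 19 had the lowest with 15 of 2307 or 0.650%, and chromosomes 7 and 11 had 0.866% and 0.934%. Given the distances and abundance of the peaks on each chromosome, 41.3 members would have fallen on chromosome 12 at the rates of all autosomes, 56.2 on chromosome 4 and 26.6 on chromosome 19. On chromosome 12 the mirrored set had a low share, 0.883%, and the peaks that met neither rule had a median log2 difference of -0.09, the lowest of the autosomes. On chromosome 4 that median was -0.08, and on chromosome 11 it was 0.02.

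**Figure D5:**
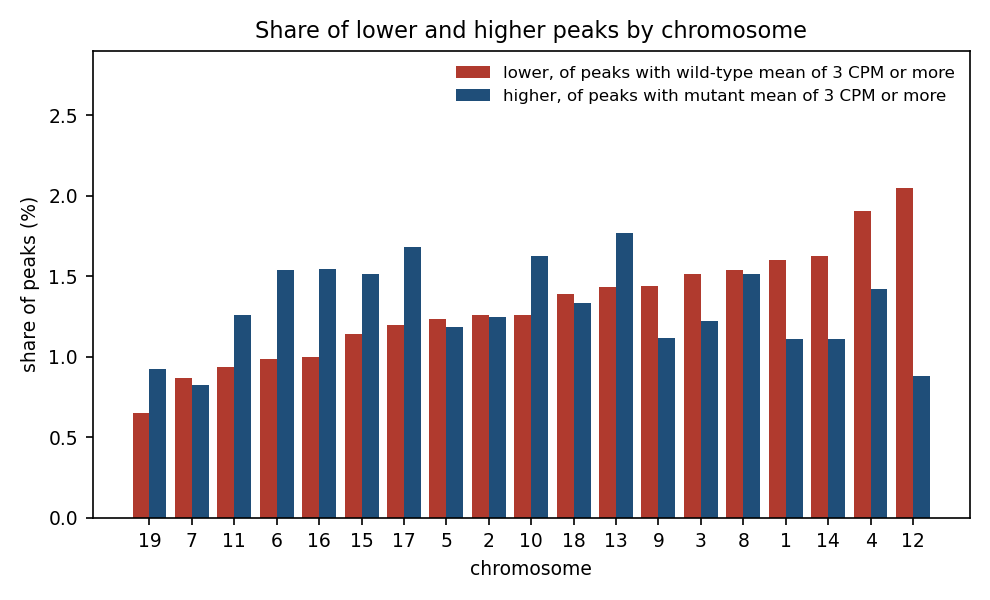
Share of peaks on each autosome that were lower in both mutant libraries (red, of peaks with a wild-type mean of 3 CPM or more) or higher in both (blue, of peaks with a mutant mean of 3 CPM or more), ordered by the share of lower peaks. Lower peaks run from 0.650% on chromosome 19 to 2.05% on chromosome 12, where the share of higher peaks is 0.883%.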

How the data were processed

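Chromatin accessibility of whole mouse heart was profiled by ATAC-seq in 4 libraries, 2 for each genotype, grouped by sample title. The deposited table holds raw counts for every peak and library, as its header and whole-number values show, and the authors applied no scaling to them. Per the submitters' processing notes, FastQC and Bowtie2 were run and the build is mm10. For the peak caller, the read filters and any transposase shift, the tool or setting is not given in the sources used here; another choice could alter the regions and their counts.

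CPM is the count over the library's total in peaks. Peaks and their coordinates were used as the table gives them. Whether its starts count from 0 or 1 is not stated. Distances run from a peak's midpoint to the nearest of the RefSeq GRCm38.p6 protein-coding starts, or to either end for 4408 of 21900 genes whose start was not in the table used, 511 of them on chromosome 18. A protein-coding gene start or end means such a point throughout, and the ends of the other genes were not measured. Like-abundance values weight the 68335 autosomal peaks of 3 CPM or more to the members' shares over 8 bins of wild-type CPM. Background calls came from the quasi-likelihood test of edgeR 4.0.16 (R 4.3.3) with TMM, filterByExpr and genotype only, at an adjusted p under 0.05, tested on simulated data; Python 3.11.15 did the rest. Alternatives changed the added CPM, fold, abundance minimum, scaling, window, annotation and tool, and left out each library. Peaks on X and Y (983 of 3 CPM or more) were left out by the rule.

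The members and the gene lists were chosen with earlier results of these data known. Peaks named are those with the 10 largest ratios, the 5 strongest, up to 10 strongest at gene starts or ends, the 5 largest groups and genes with most members, and the largest ratio of each list; other peaks were named after their values were seen. One of the 5 strongest peaks is not reported here.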

Additional observations from a re-analysis of the deposited data

How the results depend on the processing

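The number of members was 901. It was 2420 at a fold of 1.5 and 385 at a fold of 2, and 576 with a wild-type mean of 5 CPM or more. Leaving out 1 library, which asks for fewer comparisons of the libraries, gave 1910 to 2978 peaks. With TMM or DESeq2 size factors 802 peaks met the rule, and 794 members met it under all scalings. The median distance was 54459 bp at a fold of 2 and 38804 to 47432.5 bp with 1 library left out. With gene starts alone and chromosome 18 left out, an alternative added after the data were seen, it was 71866 bp, against 31011 bp for like-abundance peaks. The median width was 514 bp with 5 CPM or more, and 410 to 445 bp with 1 library left out. The share with another member within 50 kb was 6.49% at a fold of 2, 7.81% with 5 CPM or more, 10.8% with TMM, 8.88% in a 25 kb window, 19.3% in a 100 kb window, and 22.2% to 32.4% with 1 library left out. The share within 1 kb of a gene stayed between 1.56% and 2.71% under every alternative run.

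Lower calls numbered 2156 with edgeR, 1008 with DESeq2, 1615 with limma voom, and 364 to 4132 with 1 library left out. With the replicate number as a block they numbered 4494, with 900 members among them. The labels do not say that a number pairs samples. Deviations of same-numbered samples from their group means correlated with r = 0.108. With 2 libraries a group this value is the same for both numbers by construction. It cannot decide whether the numbers pair samples. Members among the lower calls numbered 257 to 769 with 1 library left out. The causes of these shifts were not tested. With 32 counts or more in each wild-type library and 2 libraries a group, weak members carry sizeable counting error.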

Other observations

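Several genes outside the lists had a pair of members within 50 kb of a start or end. Ednrb, the endothelin receptor gene of the neural crest and melanocytes, had one at 9.995 and 9.585 CPM in the wild type and at 3.46 and 4.33 CPM in the mutant, and another at 12.0 and 14.6 CPM and at 5.32 and 6.02 CPM. Nfkb1, the gene of an NF-kappa-B subunit, had one at 14.9 and 17.9 CPM in the wild type and at 5.14 and 5.14 CPM in the mutant. Stat5b, a cytokine signal transducer gene, had one 6292 bp from a start at 6.68 and 7.12 CPM in the wild type and at 2.33 and 2.01 CPM in the mutant. Fgf2, a fibroblast growth factor gene, had one of the stronger members at 27.2 and 32.4 CPM in the wild type and at 12.8 and 15.2 CPM in the mutant. Pairs were also found at Nfib, a nuclear factor I gene, and Chd7, a chromatin remodeller gene. These genes were named after their values were seen.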
